A study of Mus musculus with 6 samples.

Results

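Meiotic recombination and synapsis genes were followed in RNA from whole mouse testes, as 35 genes chosen by name for their part in exchanging DNA between, or binding together, homologous chromosomes. Of these, 34 were among the 14998 genes of the authors' table of FPKM (fragments counted over a gene's exons, per kilobase and per unit of sequencing depth). The expression of Mei4, a gene of meiotic break formation, is not analysed here, and Mei4 is counted only among the promoter windows. By textbook knowledge, open in some cases, 25 of the 34 were placed in a germline class, used in meiosis, and 9 in a class of repair genes that dividing somatic cells also use. Psmc3ip, Mnd1 and Ccnb1ip1, placed in the shared class, can also be counted as germline, and the closing section gives the counts for that split. The control libraries (n = 3) came from Lats1flox/flox;Lats2flox/flox mice, and the knockout libraries (n = 3) from mice with the same floxed alleles and Amh-cre, a transgene that drives Cre recombinase in Sertoli cells, the supporting cells of the testis cords. Both groups thus carry the floxed alleles, and germ cells, Leydig cells and macrophages are not the intended site of deletion. The labels do not state age, nor whether each library is a separate animal, so p-values reflect only how far the libraries of a group differ, and some of that may be technical. Testes are named in the sample labels but adrenal glands in the design text, and the germ cell gene Ddx4 was present at 42.3 to 51.5 FPKM in control libraries.

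In meiosis, SPO11 cuts both DNA strands, DMC1 and its partners use the broken end to find the homologous chromosome, and a small share of the repaired breaks become crossovers. Cohesin rings that contain REC8, STAG3 and SMC1B hold sister chromatids along a protein axis of SYCP2, SYCP3 and HORMAD1, and the transverse filament SYCP1 zips the axes of homologues together with the SYCE proteins and TEX12. In the testis these genes are known for activity in spermatogonia about to enter meiosis and in spermatocytes. BRCA1, BRCA2, RAD51C and EXO1 act in the same reactions but also repair breaks in ordinary dividing cells.

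Promoter sequences are shown for 5 members because they span the contrasts described below. Tex12 and Rad51ap2 were among the largest falls, Sycp1 and Sycp3 did not pass the test, and the Tex14 promoter is shared with its neighbour Rad51c. The sequences are RefSeq windows on GRCm38.p6, from 250 bases before to 50 bases after the gene start, read on the gene's own strand. Capitals mark matches, on either strand, to GCGGGA (an E2F-type motif), CACGTG (an E-box) or CNCCTCAG (the motif bound in the mouse by STRA8 and MEIOSIN, the inducers of meiotic entry). None of these letter strings contains another. E2F6, which reads the first, and MGA, which reads the second with its partner MAX, are known in the mouse for silencing germline genes in somatic cells.
Tex12, chr9:50561219-50561518, minus strand: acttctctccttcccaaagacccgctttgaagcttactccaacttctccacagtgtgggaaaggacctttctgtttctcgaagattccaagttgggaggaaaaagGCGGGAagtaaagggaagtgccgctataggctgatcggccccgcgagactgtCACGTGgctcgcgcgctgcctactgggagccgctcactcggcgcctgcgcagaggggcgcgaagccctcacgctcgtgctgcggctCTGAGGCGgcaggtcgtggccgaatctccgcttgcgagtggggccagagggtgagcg
Rad51ap2, chr12:11455805-11456104, plus strand: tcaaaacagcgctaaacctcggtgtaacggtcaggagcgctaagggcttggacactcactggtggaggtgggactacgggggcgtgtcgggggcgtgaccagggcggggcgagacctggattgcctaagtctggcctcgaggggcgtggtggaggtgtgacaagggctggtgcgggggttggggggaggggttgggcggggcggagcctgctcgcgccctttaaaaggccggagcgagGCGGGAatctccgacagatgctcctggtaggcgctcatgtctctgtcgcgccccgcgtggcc
Sycp1, chr3:102936051-102936350, minus strand: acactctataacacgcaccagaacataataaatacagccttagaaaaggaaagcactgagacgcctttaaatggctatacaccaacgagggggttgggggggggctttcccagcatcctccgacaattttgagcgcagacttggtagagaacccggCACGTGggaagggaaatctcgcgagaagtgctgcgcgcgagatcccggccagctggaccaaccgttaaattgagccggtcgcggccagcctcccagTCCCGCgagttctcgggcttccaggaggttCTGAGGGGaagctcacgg
Sycp3, chr10:88459337-88459636, plus strand: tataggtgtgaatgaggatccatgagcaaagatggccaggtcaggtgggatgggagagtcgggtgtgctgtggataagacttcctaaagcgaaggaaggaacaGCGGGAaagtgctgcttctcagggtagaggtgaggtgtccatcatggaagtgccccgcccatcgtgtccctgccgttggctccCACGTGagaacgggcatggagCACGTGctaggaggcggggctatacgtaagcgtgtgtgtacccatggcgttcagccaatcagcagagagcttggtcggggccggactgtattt
Tex14, chr11:87404815-87405114, plus strand: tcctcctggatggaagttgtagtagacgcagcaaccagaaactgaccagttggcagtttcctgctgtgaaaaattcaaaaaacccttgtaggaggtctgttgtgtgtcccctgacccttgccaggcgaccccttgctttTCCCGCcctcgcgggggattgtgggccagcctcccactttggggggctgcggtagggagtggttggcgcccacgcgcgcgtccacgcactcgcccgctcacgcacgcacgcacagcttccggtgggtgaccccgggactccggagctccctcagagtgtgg

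The Tex12 window held all 3 motifs, with GCGGGA 145 bases, CACGTG 93 bases and CNCCTCAG 7 bases before the start. The Sycp1 window also held all 3, with CACGTG 94 bases before the start and GCGGGA and CNCCTCAG beginning at transcribed bases 3 and 33. A member that fell and a member that did not pass the test thus carried the same set of motifs. The Sycp3 window held GCGGGA 147 bases and CACGTG 64 and 43 bases before the start, and Rad51ap2 held a single GCGGGA 12 bases before it. RefSeq windows were matched to 30 of the 35 listed members, and 6 of these had 2 windows, which leaves Spo11, Meiob, Tex15, Tex11 and Exo1. Mei4 is counted here as a germline member, and its window held no match to any motif searched. GCGGGA occurred in 15 of 22 germline members (68.2%) and 5 of 8 shared members (62.5%), against 40.1% of the 9714 genes tested for expression that had a window and 22.0% of all 27025 genes with one. CACGTG occurred in 7 of 22 germline members (31.8%) and CNCCTCAG also in 7 of 22, against 11.9% and 10.9% of the genes tested for expression. Neither was found in the windows of the 8 shared members. Some windows lie away from the deposited gene start. The Rnf212 window, which held GCGGGA and CACGTG, lies at chr5:108774978-108775277, outside the deposited gene (108731661 to 108749448). The Mei1 window begins at 82082226 on chromosome 15, inside the deposited gene, which starts at 82069996. The cyclic AMP response element TGACGTCA was found in Brca2 and Rad51c alone among the members, against 3.45% of genes tested. These shares describe letters in a fixed window and are not evidence of binding.

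Lats1, one of the targeted genes, had 15.7 ± 0.569 FPKM in control and 12.7 ± 0.239 in knockout libraries (SD, n = 3 each, as for every ± value here), and Lats2 had 15.4, 14.5 and 17 FPKM against 17.8, 18.2 and 18.1, a rise, so the level of neither gene in the whole organ checks the deletion. Groups are called by their labels. Library totals recovered from the size of single reads ran from 9490735 to 13620087 reads, and 1 read stood for 0.0210 to 0.0301 FPKM at the median gene. In the knockout group, germ cell markers were lower in 15 of 18 tested cases (median of 19 measured -1.65 on the log2(FPKM + 1) scale), with the pluripotency-linked RNA-binding gene Lin28a 7.62-fold and the piRNA gene Tdrd9 6.78-fold lower. Leydig cell markers were lower in 9 of 9 (median -1.36, Fdxr 2.95-fold and Ren1 4.76-fold lower), and macrophage markers higher in 13 of 13 (median 2.92, Cx3cr1 10.3-fold and Csf1r 11.2-fold higher). Sertoli markers went both ways, lower in 12 and higher in 3 of 15 (median -0.89). Amh was 64.2-fold and Tesc 9.88-fold lower, while Cldn11 was 3.08-fold, Wt1 1.34-fold and Sox9 1.18-fold higher. Over all genes tested 33.7% were lower and 35.2% higher. Markers of spermatocytes and spermatids were lower in 4 of 6 tested (Ldhc 11.5-fold and Ybx2 4.92-fold), where Ldhc, Piwil1 and Tnp1 had knockout means under 1 FPKM and passed the filter on low values through their control levels, and among them Tnp2, Prm1, Prm2 and Acr are not analysed here. With RNA of a whole organ, fewer germ cells and less RNA per germ cell cannot be told apart, and the share of each member's difference that goes with these shifts in cell markers was not tested.

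Members were tested with limma on log2(FPKM + 1) within the set of 13778 genes whose mean reached 1 FPKM. The p-values were adjusted by Benjamini-Hochberg over that whole set, with a threshold of 0.05, and intervals are 95% intervals of the log2 difference. Log2 differences are knockout minus control on that scale, which understates changes of low genes, and fold changes are ratios of mean FPKM. Of the 34 members, 32 passed the filter on low values, and 26 of these fell, 6 did not pass the test and 0 rose. Spo11 and Msh5 had knockout means under 1 FPKM and passed the filter through their control levels. Both are counted among the 26, but their calls are not taken as support for a fall. Over all genes tested 68.9% passed the test, with 33.7% lower and 35.2% higher. All knockout values lay below all control values in 28 of the 34 members and above them in 0, where over all genes tested these shares were 36.3% and 37.9%. In the germline class 17 of 23 tested members fell, and in the shared class 9 of 9 fell. The median log2 difference was -1.10 over the 25 germline members measured and -0.67 over the 9 shared members, against 0.01 over all genes tested. The summed level of the germline class was 231, 230.0 and 268 FPKM in control replicates 1 to 3 and 132, 73.3 and 139 FPKM in knockout replicates 1 to 3. The shared class summed to control levels of 103, 103 and 101 FPKM and knockout levels of 63.0, 58.4 and 64.8. Both sums were lower in every knockout than in every control library, and only the germline sum spread widely within the knockout group.

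**Figure D1:**
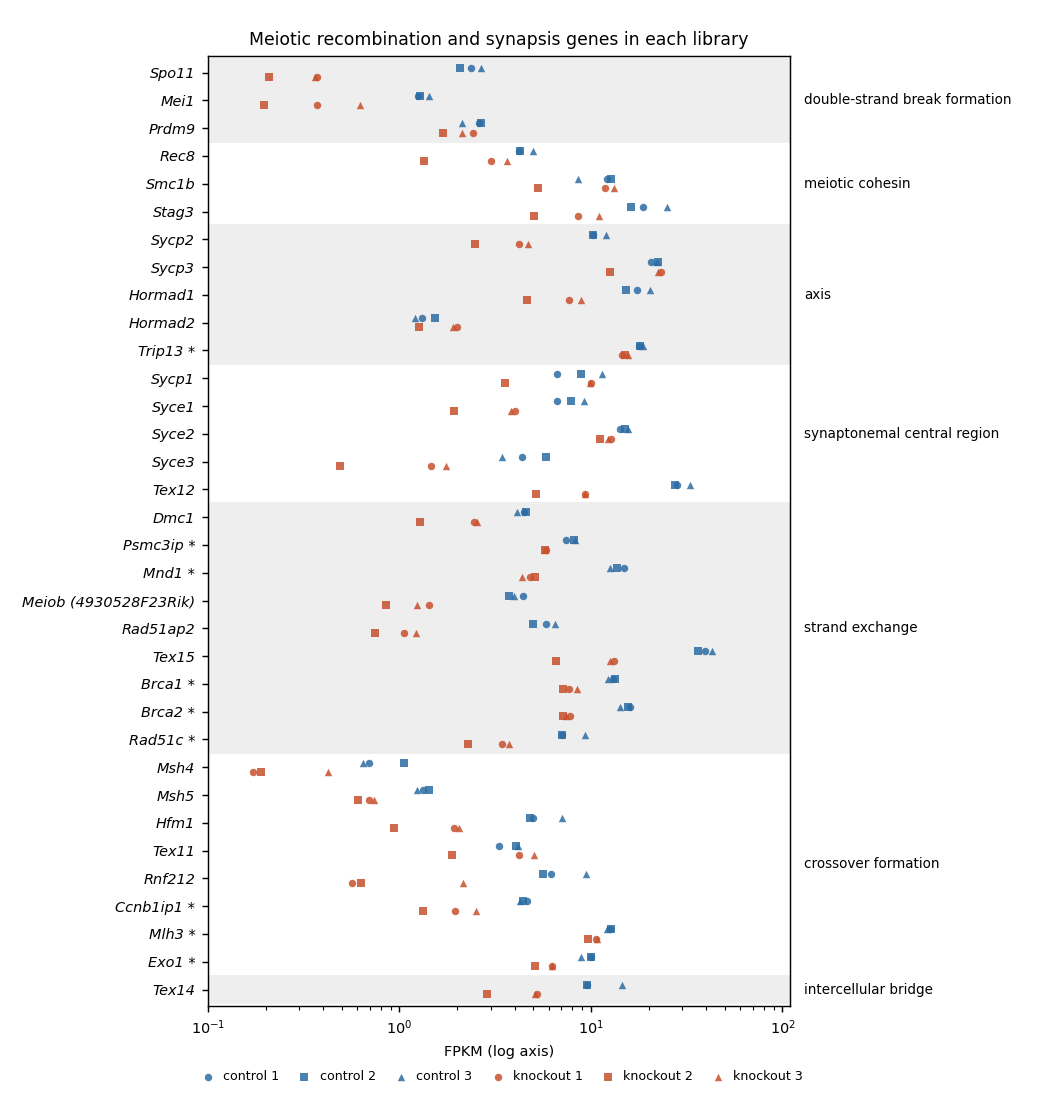
FPKM of each of the 34 measured members in each library (log axis), ordered by role, with blue for control, red for knockout and the marker shape for the replicate; an asterisk marks genes shared with somatic repair. In 28 members all knockout values lie below all control values, and the square of knockout replicate 2 is the leftmost red marker in 30 members.

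Genes of break formation came first in the order of meiotic events. Spo11 (chromosome 2, 172977700 to 172993576, GRCm38), which encodes the enzyme that makes the breaks, had 2.36, 2.08 and 2.68 FPKM in controls 1 to 3, against 0.373, 0.208 and 0.360 in knockouts 1 to 3. The groups were far apart, with 88 to 127 reads per control and 9 to 18 reads per knockout library. Spo11 fell 7.57-fold, the largest fold among the members (log2 difference -1.36, SE 0.11, limma adjusted p = 9.15e-06). Mei1, a gene needed for break formation in the mouse, had 1.25, 1.28 and 1.42 FPKM in the controls and 0.373, 0.197 and 0.619 in the knockouts. The groups did not overlap, but its mean was under the filter, and it was tested only without that filter (log2 difference -0.74, limma adjusted p = 0.000934). Every gene with deposited values reached 1 FPKM in at least 1 library. Spo11 and Mei1 did so in control libraries alone, which favours a fall, so the p-value of neither gene is taken as support for one. Prdm9, the histone methyltransferase gene that places breaks at hotspots, had control levels of 2.59, 2.66 and 2.11 FPKM and knockout levels of 2.41, 1.68 and 2.11. These values overlapped (log2 difference -0.17, interval -0.44 to 0.09, limma adjusted p = 0.209).

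The meiotic cohesin genes behaved unequally. Stag3 (chromosome 5, 138280240 to 138312393), whose product is the meiotic counterpart of STAG1 and STAG2, had 18.8, 16.1 and 25 FPKM in controls 1 to 3, against 8.56, 5.01 and 11.0 in knockouts 1 to 3. It fell 2.44-fold with no overlap (log2 difference -1.23, SE 0.24, limma adjusted p = 0.00176). Rec8, which encodes the kleisin subunit of the meiotic ring, had 4.22, 4.25 and 4.96 FPKM in the controls and 3.01, 1.35 and 3.63 in the knockouts. It fell 1.68-fold (limma adjusted p = 0.0302), a call that was lost without any 1 of the control replicates (limma adjusted p 0.0593 to 0.0726), and without knockout replicate 2 its log2 difference of -0.63 became -0.34. Smc1b, the meiotic counterpart of Smc1a, had control levels of 12.1, 12.7 and 8.55 FPKM and knockout levels of 11.9, 5.27 and 13.2. Knockout replicates 1 and 3 lay within or above the control range and replicate 2 below it (log2 difference -0.19, interval -0.84 to 0.46, limma adjusted p = 0.573). Among the cohesin genes that every dividing cell uses, Rad21, the somatic counterpart of Rec8, fell 1.27-fold, Stag1 1.14-fold and Smc3, whose product is part of both kinds of ring, 1.29-fold. Smc1a had 33.2 ± 1.65 FPKM in control and 33.4 ± 0.402 in knockout libraries (SD, n = 3 each, limma adjusted p = 0.806), and Stag2 had 32.6 ± 1.76 and 33.3 ± 0.808.

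Among the axis genes 3 of 5 fell, against 33.7% of all genes tested. Sycp2, a core gene of the axis, had 10.2, 10.3 and 12.0 FPKM in controls 1 to 3, against 4.22, 2.47 and 4.69 in knockouts 1 to 3, 2.86-fold lower (log2 difference -1.33, SE 0.17, limma adjusted p = 0.000128). Hormad1, which encodes a sensor of unsynapsed axes, had 17.4, 15.3 and 20.3 FPKM in the controls and 7.65, 4.61 and 8.83 in the knockouts, and fell 2.51-fold. Neither gene overlapped between groups. Sycp3 (chromosome 10, 88459569 to 88473236), whose product is the partner of SYCP2 in the axis, had control levels of 20.5, 22.3 and 22.2 FPKM and knockout levels of 23.2, 12.5 and 22.5. Knockout replicates 1 and 3 were slightly above every control value and replicate 2 was the lowest of the 6 libraries (log2 difference -0.20, interval -0.64 to 0.24, limma adjusted p = 0.380). In the annotation 52.2% of Sycp3 exon bases are shared with Chpt1 on the opposite strand, the strand setting of the counting is not given in the sources used here, and Chpt1 had 12.1 ± 0.792 FPKM in control and 11.5 ± 0.267 in knockout libraries. Hormad2, the relative of Hormad1, was the member with the highest log2 difference, with 1.31, 1.53 and 1.21 FPKM in controls 1 to 3, against 1.99, 1.26 and 1.90 in knockouts 1 to 3. Replicate 2 lay within the control range while the other 2 knockout values lay above it (log2 difference 0.20, limma adjusted p = 0.195). Without knockout replicate 2 Hormad2 passed the test as a rise (log2 difference 0.33, limma adjusted p = 0.0331). Trip13, the ATPase gene that strips HORMAD proteins from axes and also serves the mitotic checkpoint, fell 1.21-fold from 18.3 ± 0.458 to 15.1 ± 0.464 FPKM (SD, n = 3 each), without overlap.

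In the central region that joins the axes, 4 of 5 genes fell, each by a different amount, against 33.7% of all genes tested. Tex12 had 28.2, 27.5 and 32.8 FPKM in the controls and 9.34, 5.14 and 9.29 in the knockouts, a fall of 3.72-fold (log2 difference -1.81, SE 0.18, limma adjusted p = 3.50e-05). Its partner gene Syce2 had control levels of 14.1, 15.1 and 15.7 FPKM and knockout levels of 12.7, 11.1 and 12.3. TEX12 and SYCE2 form 1 complex, yet the fall of Syce2 was 1.24-fold and that of Tex12 3.72-fold, and the intervals of their log2 differences, -0.43 to -0.15 and -2.23 to -1.39, did not meet. The difference between the genes was not itself tested here or for the pairs below. Syce1, which encodes another central element protein, had 6.63, 7.83 and 9.21 FPKM in controls 1 to 3, against 4, 1.92 and 3.80 in knockouts 1 to 3, 2.44-fold lower. Syce3 fell 3.68-fold from 4.55 ± 1.21 FPKM and may rest on few reads, with 23, 44 and 23 in control and 10, 3 and 11 in knockout libraries as the smallest whole-number solution. Both were without overlap between the groups. Sycp1, the transverse filament gene, had 6.65, 8.89 and 11.4 FPKM in the controls and 9.96, 3.56 and 9.88 in the knockouts. Its control libraries differed among themselves, and knockout replicates 1 and 3 fell inside their range (log2 difference -0.26, interval -1.01 to 0.48, limma adjusted p = 0.496).

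All 9 genes of strand exchange fell, against 33.7% of all genes tested. Their values in the 3 knockout libraries all lay below the control values, as was found in 36.3% of all genes tested. Tex15, a gene known in the mouse for meiotic break repair and for transposon silencing, was the member with the highest control FPKM, with control levels of 39.4, 36.4 and 42.9 FPKM and knockout levels of 13.2, 6.53 and 12.5. It fell 3.69-fold (log2 difference -1.84, SE 0.21, limma adjusted p = 6.96e-05) on 694 to 4995 reads per library. Rad51ap2 (chromosome 12, 11456079 to 11462928), a germline gene of strand exchange, had 5.84, 4.97 and 6.48 FPKM in controls 1 to 3, against 1.05, 0.741 and 1.22 in knockouts 1 to 3, 5.74-fold lower (log2 difference -1.76, SE 0.12, limma adjusted p = 3.34e-06). Meiob, listed in the table as 4930528F23Rik, encodes a meiotic single-strand binding protein and fell 3.44-fold from 4.04 ± 0.326 to 1.17 ± 0.296 FPKM. Dmc1, the meiotic recombinase gene, had 4.47, 4.59 and 4.11 FPKM in the controls and 2.44, 1.28 and 2.54 in the knockouts, a smaller fall of 2.10-fold. DMC1 is helped by the pair of HOP2, encoded by Psmc3ip, and MND1, and the genes of this pair differed. Mnd1 had control levels of 14.8, 13.6 and 12.5 FPKM and knockout levels of 4.83, 5.08 and 4.34, 2.87-fold lower (log2 difference -1.35, SE 0.08, limma adjusted p = 1.14e-06). Psmc3ip fell 1.38-fold from 7.95 ± 0.458 to 5.77 ± 0.0384 FPKM, and the intervals of the log2 differences, -1.52 to -1.17 for Mnd1 and -0.54 to -0.26 for Psmc3ip, did not meet. Of the Psmc3ip exon bases 21.2% are shared with Mlx on the opposite strand, which rose 1.44-fold.

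The tumour suppressor genes in the same step were lower with little spread. Brca2 (chromosome 5, 150522630 to 150569746), which loads the recombinase onto DNA, had 16.0, 15.6 and 14.1 FPKM in controls 1 to 3, against 7.75, 7.13 and 7.37 in knockouts 1 to 3. It fell 2.05-fold (log2 difference -0.95, SE 0.06, limma adjusted p = 1.88e-06). Brca1 had 13.1, 13.3 and 12.3 FPKM in the controls and 7.70, 7.11 and 8.45 in the knockouts, 1.67-fold lower. Neither gene overlapped between the groups, and the 3 knockout values lay close together. Rad51c, which encodes a recombinase paralogue of strand exchange, had control levels of 7.02, 7.03 and 9.33 FPKM and knockout levels of 3.44, 2.29 and 3.74, and fell 2.47-fold (log2 difference -1.09, SE 0.15, limma adjusted p = 0.000242).

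Rad51c lies head to head with Tex14, the germ cell gene of intercellular bridges. On GRCm38 Rad51c runs on the minus strand of chromosome 11 from 87376645 to 87404954 and Tex14 on the plus strand from 87405065 to 87555823, with 110 bases between them in the deposited coordinates. The Tex14 promoter window printed above and the outer RefSeq window of Rad51c share 210 bases, and the GCGGGA match in capitals, at 87404954 to 87404959, is 1 site seen from both genes. Tex14 had 9.54, 9.49 and 14.6 FPKM in controls 1 to 3, against 5.23, 2.87 and 5.10 in knockouts 1 to 3, 2.55-fold lower (log2 difference -1.18, SE 0.21, limma adjusted p = 0.000989). In both genes control replicate 3 was the highest library and knockout replicate 2 the lowest. This order was not particular to the pair, since Stag3 and Hormad1 on other chromosomes shared it. Knockout replicate 2 held the lowest knockout value in 23 of 25 germline members and 7 of 9 shared members, against 39.5% of all genes tested.

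Genes of crossover formation fell in 6 of 7 tested cases, against 33.7% of all genes tested. Rnf212, a ligase gene that selects crossover sites, had 6.22, 5.61 and 9.47 FPKM in the controls and 0.564, 0.629 and 2.14 in the knockouts. Its fall of 6.38-fold (log2 difference -1.99, SE 0.27, limma adjusted p = 0.000228) may rest on few reads, since the smallest whole-number solution gave 17 to 33 reads per control and 2, 2 and 7 reads per knockout library. Its FPKM did not match its annotated exon length, so these reads may be too low by a whole factor. Hfm1, a meiotic helicase gene, had control levels of 4.96, 4.82 and 7.07 FPKM and knockout levels of 1.92, 0.940 and 2.04, 3.44-fold lower. Msh5, which encodes 1 subunit of the MutS-type clamp on crossover intermediates, fell 1.97-fold from 1.33 ± 0.0904 to 0.677 ± 0.0651 FPKM. Msh4, the gene of the other subunit, was below the filter with 0.801 ± 0.226 and 0.262 ± 0.141 FPKM, and without the filter its log2 difference was -0.51 (limma adjusted p = 0.00880). Like Mei1, Msh4 reached 1 FPKM in the control group alone, at 1.06 FPKM in control replicate 2, so this p-value is not taken as support for a fall. The same holds for the Msh5 call, since Msh5 reached 1 FPKM in control libraries alone. The somatic mismatch repair genes of the same family, Msh3 and Msh6, fell 1.62-fold and 1.36-fold. Tex11, an X-linked crossover gene, had 3.29, 4.05 and 4.17 FPKM in controls 1 to 3, against 4.19, 1.87 and 5.04 in knockouts 1 to 3. Knockout replicates 1 and 3 were above every control value and replicate 2 below every one (log2 difference -0.10, interval -0.66 to 0.45, limma adjusted p = 0.718).

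The shared genes of this step also fell, by unequal amounts. Ccnb1ip1, which encodes the ligase HEI10, had 4.61, 4.43 and 4.27 FPKM in the controls and 1.94, 1.32 and 2.52 in the knockouts, 2.31-fold lower, and 12.4% of its exon bases are shared with the RNase P RNA gene Rpph1 on the same strand. Exo1, an exonuclease gene, fell 1.63-fold from 9.61 ± 0.658 to 5.89 ± 0.673 FPKM. Mlh3, the endonuclease subunit that resolves crossovers, fell 1.21-fold from 12.5 ± 0.340 to 10.3 ± 0.622 FPKM. The related mismatch repair genes Pms1 and Pms2 fell 1.35-fold and 1.23-fold, and the replication protein gene Rpa1 fell 1.18-fold.

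**Figure D2:**
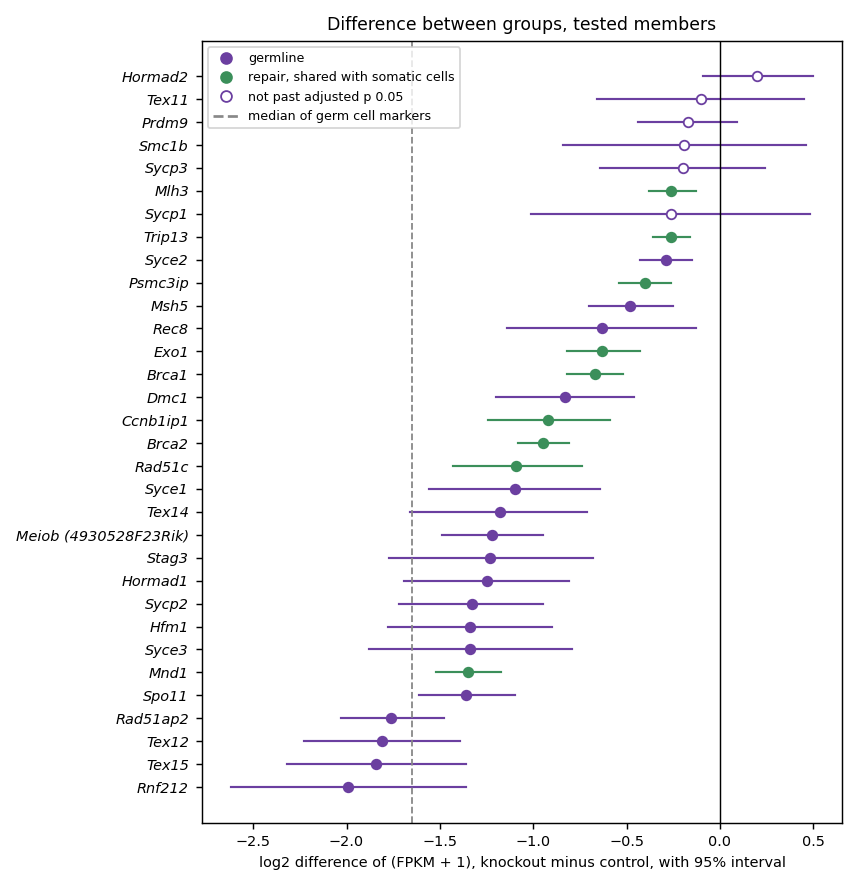
Log2 difference of FPKM + 1 between knockout and control libraries (n = 3 each) with its 95% interval from the limma fit, for the 32 tested members, with germline members in purple, shared repair members in green and open circles for members that did not pass. Members spread from -1.99 for Rnf212 to 0.20 for Hormad2, and the 6 open circles near the zero line are all germline members whose intervals include 0; the dashed line is the germ cell marker median of -1.65.

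In each of the 6 members that did not pass, Prdm9, Smc1b, Sycp3, Hormad2, Sycp1 and Tex11, the groups overlapped and knockout replicate 2 was the lowest knockout library. That replicate held the lowest knockout value in 23 of 25 germline members and 7 of 9 shared members, where the same replicate was lowest in 39.5% of all genes tested. It was also lowest in 75.0% of the other repair genes shared with somatic cells and 69.2% of the somatic paralogues. Its median deviation from the knockout mean was -0.43 on the log2(FPKM + 1) scale in germline members, against 0.17 and 0.24 in replicates 1 and 3. In the shared members the medians were -0.09, 0.03 and 0.06 for replicates 2, 1 and 3. Germ cell markers deviated like the germline members, with a median of -0.38 in replicate 2, and proliferation genes, Leydig cell markers and macrophage markers did not, with medians of -0.01, -0.01 and 0.06. The medians in replicate 2 were -0.29 in other meiotic genes and -0.04 in spermatocyte and spermatid markers. The part of the germ cell content of that library in these deviations was not tested. Within the shared class Rad51c and Ccnb1ip1 had their lowest value in that replicate, while Mnd1 had its highest there. Without knockout replicate 2 the counts were 17 germline and 9 shared members lower, and Hormad2 higher. The log2 differences of Smc1b, Sycp3, Sycp1 and Tex11 then turned to 0.18, 0.07, 0.16 and 0.22, and none of these 4 passed the test. Among controls, replicate 3 deviated upward in germline members (median 0.12, against -0.06 and -0.02 in replicates 1 and 2), and germ cell markers did so as well (0.17).

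**Figure D3:**
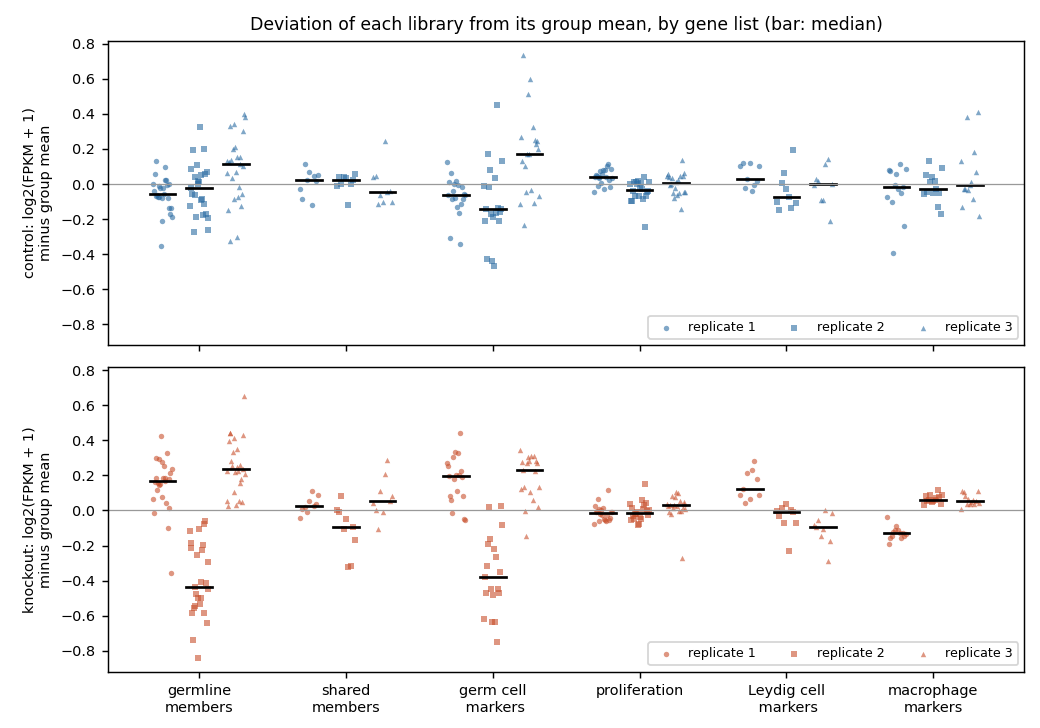
Deviation of log2(FPKM + 1) in each library from the mean of its group, for control libraries (top) and knockout libraries (bottom), with 1 point per gene, 1 marker shape per replicate and a black bar at the median of each list. Knockout replicate 2 sits at -0.43 in germline members and -0.38 in germ cell markers, and at -0.01 in proliferation genes.

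Because germ cell genes as a whole were lower, each member was also set against Ddx4, the RNA helicase gene expressed throughout the germline, which had control levels of 47.2, 42.3 and 51.5 FPKM and knockout levels of 19.2, 11.7 and 20.3. Ddx4 was chosen with earlier results of these data known, and with 3 libraries in each group an exact permutation test cannot go below 0.1, the two-sided value reached by every member whose groups did not overlap. Per Ddx4, Sycp3 stood at 0.434, 0.527 and 0.431 in control and 1.21, 1.07 and 1.11 in knockout libraries, and knockout replicate 2 lay next to the other knockout libraries. That did not hold for every member that did not pass. Knockouts 1 to 3 stood at 0.520, 0.303 and 0.486 for Sycp1, 0.623, 0.449 and 0.651 for Smc1b, and 0.218, 0.160 and 0.248 for Tex11. Replicate 2 was thus still the lowest there, while in Prdm9 and Hormad2 it was the highest knockout library. Hormad2 per Ddx4 was 3.49-fold, Tex11 2.54-fold, Smc1b 2.39-fold, Prdm9 2.35-fold and Sycp1 2.29-fold higher in knockout than in control libraries. Members that fell were among those with like ratios, with Syce2 at 2.31-fold, Trip13 at 2.40-fold and Mlh3 at 2.36-fold. Ratios above the control range were found in 15 of the 34 members, 10 germline and 5 shared, against 88.9% of all genes tested. Sycp2, Stag3, Hormad1, Syce1 and Tex14 kept a ratio whose groups overlapped, with folds of 0.955, 1.12, 1.09, 1.11 and 1.08. The groups also overlapped in Syce3, Mei1 and Msh4, at folds of 0.688, 0.793 and 0.880. A ratio below the control range was found in 4.73% of all genes tested and in 7 of the 34 members, all of the germline class. Spo11 per Ddx4 was 0.0501, 0.0491 and 0.0519 in control and 0.0194, 0.0177 and 0.0177 in knockout libraries. The others were Rnf212, Rad51ap2, Tex12, Tex15, Hfm1 and Meiob (4930528F23Rik), with folds of 0.421, 0.485, 0.734, 0.735, 0.788 and 0.805. With the germ cell gene Mael as the divisor only Spo11 and Rad51ap2 remained below the control range, and with Tex101 only those and Rnf212, so the count depends on the gene chosen.

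**Figure D4:**
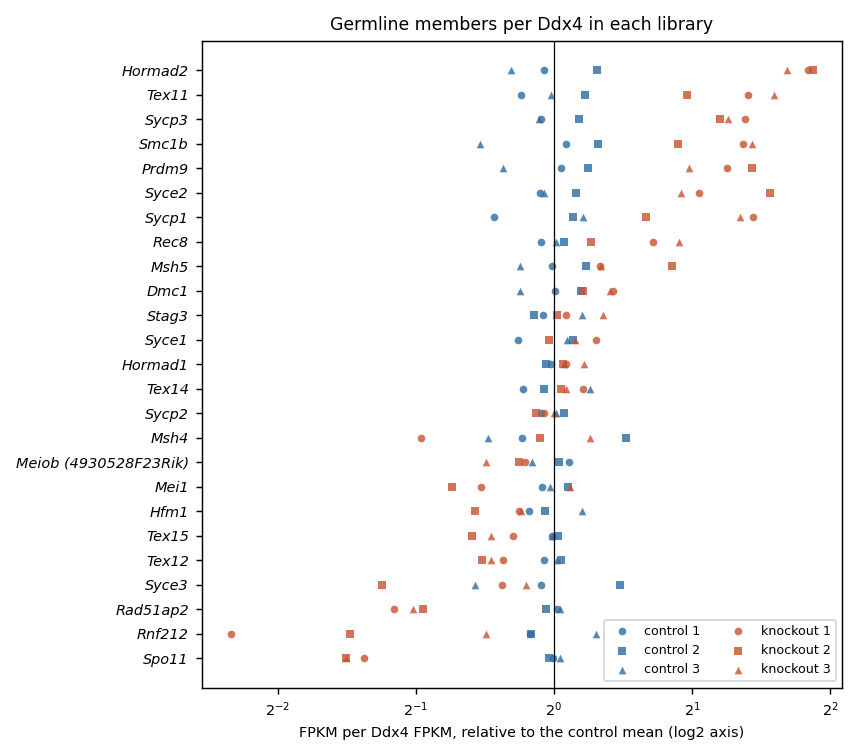
FPKM of each germline member divided by the FPKM of Ddx4 in the same library, relative to the control mean (log2 axis), with blue for control, red for knockout and the marker shape for the replicate. Spo11, Rad51ap2 and Rnf212 lie to the left in the 3 knockout libraries, and Hormad2, Tex11, Sycp3, Smc1b, Prdm9, Syce2 and Sycp1 lie farthest to the right.

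Other genes of the pathways moved in the same direction for the most part. Among the 14 other meiotic genes in the table, falls were found in 10 and rises in 2, and 2 did not pass (median log2 difference -0.68). Over all genes tested 33.7% were lower and 35.2% higher. The largest falls were in Prr19, a crossover gene (6.16-fold), Rad21l, the second meiotic kleisin (3.63-fold), Fbxo47, a gene needed for stable synapsis in the mouse (3.64-fold), and Spata22, the partner of Meiob (4.03-fold). The Spata22 exons are wholly covered on the same strand by Olfr20 and another annotation entry also named Spata22, which makes its counts uncertain. The genes that rose were Stra8, the gene that starts the meiotic programme, and Ccdc79, which encodes the telomere protein TERB1. Stra8 had 1.40, 2.36 and 0.963 FPKM in controls 1 to 3, against 18.8, 7.24 and 20.9 in knockouts 1 to 3, and shared with the germline members its lowest knockout value in replicate 2. Ccdc79 had 0.299 ± 0.0978 and 2.33 ± 0.284 FPKM, 7.79-fold higher (limma adjusted p = 9.37e-06). Ccdc79 passed the filter on low values through its knockout level, and Spata22 and Cntd1, which were among the genes that fell, through their control levels. The calls of Ccdc79, Spata22 and Cntd1 are in the counts above but are not taken as support for a difference. Of the Cntd1 exon bases 72.1% are shared with Becn1 and Coa3 on the opposite strand. Gm4969, the gene of MEIOSIN and partner of STRA8, had 1.73 ± 0.141 and 1.53 ± 0.443 FPKM and did not pass the test.

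Of 36 other repair genes shared with somatic cells 30 fell, 1 rose and 5 did not pass, with a median log2 difference of -0.39. Xrcc3, a gene of strand exchange, fell 2.16-fold, Palb2, whose product links BRCA1 to BRCA2, 1.88-fold, and the strand exchange gene Rad54b, which shares 35.9% of its exon bases with other gene models, 1.78-fold. The endonuclease gene Mus81 rose 1.28-fold. Proliferation genes fell in 16 of 20 cases by smaller amounts (median -0.21), with Bub1 1.33-fold and Kif11 1.27-fold lower. The 9 shared members (median -0.67) thus had a lower median than the other repair genes and the proliferation genes, a difference between lists that is described here and was not tested. In the authors' deposited table, 27 of the 34 members were lower and 0 higher at an FDR of 0.05. The 7 others there were the same 6 members and Syce2, at an FDR of 0.0532. The share of all genes that passed at the authors' FDR was not computed, so these counts have no background of their own. With limma 33.7% of all genes tested were lower and 35.2% higher.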

How the data were processed

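Per the labels' protocols, whole-testis RNA was isolated on RNeasy columns and STAR was the aligner. The submitters' processing notes give GRCm38 as the build and DESeq2 1.22.2 as a tool of the authors. How reads were counted, and with which strand setting, is not given in the sources used here. Per-library FPKM, computed by the authors, are the first part of the deposited table, and this is the measure used. It also holds the authors' log2 fold changes and log2 group means, their p-values and FDR, and their −log10 p-values (from edgeR and DESeq2, per the file headers). Columns named control and mutant were matched to the labels CONT and KO.

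FPKM were whole multiples of 1 read (tolerance 0.003 reads) in 100% of genes, from which reads and library totals follow. The length behind a read was the merged exon length of GENCODE M21 where that gave whole reads (47.7% of genes) and otherwise the shortest length that did, so reads of some genes may be too low by a whole factor. The reads in the table were 75.4% to 81.6% of the totals. Precision is limited by counting for members with under 50 reads.

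Genes were tested with limma (version 3.58.1, R 4.3.3), a trend on mean level and two-sided tests, after a check on simulated data. Alternatives were another pseudocount (0.1), no filter or a mean of at least 3 FPKM, median-ratio scaling, limma-voom on recovered reads, a replicate block, leaving out each library, and another split of the classes. No 2 replicates agreed within sampling noise (mean chi-square per gene 1.75 to 5.13). The text names all members, every somatic paralogue, the 4 largest changes in each direction among other meiotic genes, the 3 among other repair genes, and 2 genes of each marker list with the smallest p. The Sertoli markers that rose are named in addition to this rule. Some genes that this rule takes are not reported here. Members and lists were chosen with earlier results of these data known. Promoters are RefSeq sequences on GRCm38.p6, matched by symbol or synonym. Python 3.11.15 with pandas 2.3.3 and matplotlib 3.10.9 made the tables and figures.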

Additional observations from a re-analysis of the deposited data

How the results depend on the processing

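Over all genes, 4850 rose and 4642 fell, and under the alternatives the counts stayed within 1.5 times these values, from 4318 to 5059 and from 4281 to 4404 when 1 library was left out. All 9 shared members fell under every alternative fit, and 15 to 17 germline members when 1 library was left out, the difference being Rec8 without any 1 of the control replicates and Msh5, which then misses the filter. The median log2 difference of the tested germline members, -1.18, ranged from -1.28 to -0.95 without 1 library. That of shared members, -0.67, was -0.73 with a pseudocount of 0.1, -0.74 on recovered reads and from -0.73 to -0.62 without 1 library. The count of members called higher was 0, and from 0 to 1 when 1 library was left out (Hormad2 without knockout replicate 2). In the same setting the log2 differences of 4 members turned positive without passing the test, for a cause that was not tested. Over all settings with 1 library left out they ranged from -0.41 to 0.18 for Smc1b, -0.35 to 0.07 for Sycp3, -0.47 to 0.16 for Sycp1 and -0.32 to 0.22 for Tex11. Levels per Mael in place of Ddx4 put 28 members above and 2 below the control range, against 15 and 7 per Ddx4, levels per Tex101 put 21 above and 3 below, and levels per Dazl 15 and 8. These 3 divisors were chosen after seeing the data. Same-numbered control and knockout libraries did not deviate together (correlations -0.01, -0.02 and 0.10), so the numbers were not taken as pairs, and with the replicate block 26 members were lower, as without it, with 4762 genes higher and 4597 lower in all. With Psmc3ip, Mnd1 and Ccnb1ip1 counted as germline, 20 germline and 6 shared members were lower. Depth may limit Syce3, Msh4 and Rnf212, whose knockout libraries held as few as 3, 7 and 2 recovered reads. The reads of all 3 may be too low by a whole factor, since their FPKM did not match the annotated exon length.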
